A study of Mus musculus with 24 samples.

Results

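The transcripts described here are those of 9 genes that mark glutamatergic projection neurons of the neocortex, followed in RNA from dissected striatum. They are Neurod1, Neurod2, Neurod6, Tbr1, Fezf2, Cux2, Slc17a7, Emx1 and Rorb, and all 9 were found by symbol among the 24340 genes that the 6 comparison tables share. They were chosen by symbol, but with their group FPKM values in these same tables already known, among them the ratios of R6/1-RGFP109 to R6/1-vehicle, so the ratios below are descriptions and no test was made on them. RNA had been sequenced from 24 male mice. The groups were WT-vehicle (5 mice), R6/1-vehicle (6 mice), WT-RGFP109 (6 mice) and R6/1-RGFP109 (7 mice). R6/1 mice carry, in the hemizygous state, a transgene of exon 1 of the human huntingtin gene with an expanded CAG repeat, and the WT mice were their C57BL/6J-background littermates. RGFP109, an inhibitor of HDAC1 and HDAC3, was injected at 30 mg/kg into the peritoneum 5 times a week over 3 weeks, and vehicle mice were given solvent only. The mice were 11 to 14 weeks old when dosing began and 14 to 17 weeks old at sacrifice, which took place 18 h after the last injection. Each group is represented in a table by 1 FPKM value per gene (fragments scaled by exon length and by the number of mapped fragments), a value that the authors computed over all libraries of the group. These group values carry no error between mice, sequencing depth cannot be given, and the differences below were not set against the spread between replicates. Values of single mice exist in the supplement of the study but are not analysed here. In them each R6/1 group holds 1 library with far less Neurod2 and Neurod6 than the rest of its group, so the ratios of R6/1 groups below need not be shared by all mice. The tissue label was met by the markers of striatal projection neurons, with 1136 FPKM for Ppp1r1b (DARPP-32) and 1102 FPKM for Penk (proenkephalin) in WT-vehicle.

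Projection neurons of the neocortex are excitatory, use glutamate as their transmitter and send axons out of their own area, many of them to the striatum. During development the homeobox factor Emx1 marks their progenitors in the dorsal telencephalon, and the basic helix-loop-helix factors of the NeuroD family act as they leave the cell cycle and differentiate. Other factors then separate the layers, with Tbr1 and Fezf2 acting in deep layers and Cux2 and Rorb in upper layers. The principal neurons of the striatum are inhibitory and arise from the ventral telencephalon, and these genes are not known as markers of them. Where the transcripts measured here came from was not tested. Several of the genes are not restricted to the neocortex. Neurod2, Neurod6, Slc17a7 and Emx1 are also transcribed in hippocampal neurons, and Tbr1 in parts of the amygdala.

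On mm10 the NeuroD genes lay at chr2:79452641-79456636 (Neurod1), chr11:98325417-98329645 (Neurod2) and chr6:55677819-55681263 (Neurod6). The layer factors lay at chr2:61804453-61814113 (Tbr1), chr14:12341892-12345865 (Fezf2), chr5:121860216-122047825 (Cux2) and chr19:18930609-19111196 (Rorb). Emx1 lay at chr6:85187931-85204463 and Slc17a7 at chr7:45163921-45176139. All 9 are protein-coding in RefSeq, and 8 of them overlapped no other gene of the tables, while Slc17a7 overlapped the microRNA gene Mir7055. NeuroD proteins bind the E-box CANNTG, and the promoters of Neurod2 and Neurod6, the genes with the highest ratios of R6/1-RGFP109 to R6/1-vehicle, are therefore shown with each CANNTG in capitals. The sequences are the 250 bases before the RefSeq transcript start that the tables use, build GRCm38.p6, read on the minus strand from chr11:98329646-98329895 and chr6:55681264-55681513.
Neurod2: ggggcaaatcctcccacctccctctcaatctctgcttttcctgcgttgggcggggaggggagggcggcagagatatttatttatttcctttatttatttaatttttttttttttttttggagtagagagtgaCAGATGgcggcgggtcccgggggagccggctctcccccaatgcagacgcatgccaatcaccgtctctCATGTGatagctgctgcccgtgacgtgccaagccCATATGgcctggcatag
Neurod6: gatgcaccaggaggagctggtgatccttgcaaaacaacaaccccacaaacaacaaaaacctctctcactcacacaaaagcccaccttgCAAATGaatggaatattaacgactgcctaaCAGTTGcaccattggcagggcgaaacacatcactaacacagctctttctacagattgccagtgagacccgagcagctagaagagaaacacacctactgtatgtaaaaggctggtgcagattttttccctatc
Neurod2 held a CAGATG box that began 118 bases before the start, a CATGTG box 51 bases before it and a CATATG box 17 bases before it. Neurod6 held a CAAATG box 162 bases before the start and a CAGTTG box 132 bases before it. Over the wider RefSeq window of 250 bases before to 50 bases after the start, CANNTG (a palindrome, so that both strands were covered) was present for 8 of the 9 genes at the start that the tables use, Fezf2 being the exception. It was present in 72.3% of all 32851 RefSeq windows of this length, so a match alone does not set these genes apart. The form CAGATG, or on the other strand the form CATCTG, counted within CANNTG, was present for Neurod2 and Cux2 and in 17.2% of all windows. Cux2 and Rorb each have a further RefSeq start that lies elsewhere. The RefSeq gene records of Tbr1, Fezf2 and Cux2 reach beyond the start that the tables use.

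All 9 genes were measured above 0 in every group, and their levels, given as the geometric mean of the authors' group values over 3 tables, covered a wide range. Slc17a7, which encodes the vesicular glutamate transporter VGLUT1, had the highest level, with 294 FPKM in WT-vehicle, 163 in R6/1-vehicle, 274 in WT-RGFP109 mice and 202 in R6/1-RGFP109. It ranked 174 of 24340 genes in WT-vehicle, and its level per length was 194-fold that of Neurod1. Every other gene of the group stayed under 15 FPKM, at ranks from 5883 (Tbr1) to 12812 (Neurod1).

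The NeuroD factors differed in level by up to 8.97-fold in WT-vehicle. Neurod2 had 13.5 FPKM in WT-vehicle, 9.05 in R6/1-vehicle, 11.0 in WT-RGFP109 mice and 12.9 in R6/1-RGFP109. Neurod6 had 13.6, 8.25, 12.8 and 11.8 FPKM in the same order of groups. Neurod1 had 1.51, 0.964, 0.981 and 1.37 FPKM. R6/1-vehicle was the lowest group for all of them, but for Neurod1 the WT-RGFP109 value lay beside it. Of 5 relatives in the same family that were also looked up, Atoh7 reached 1.42 FPKM in WT-vehicle and Neurog1 0.110 FPKM, Neurod4 and Neurog3 stayed under 0.1 FPKM in every comparison, and Atoh1 is listed at 0 in WT-vehicle.

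Tbr1, the T-box factor of deep-layer neurons that project to the thalamus, had 14.7 FPKM in WT-vehicle, 9.33 in R6/1-vehicle, 13.6 in WT-RGFP109 mice and 12.7 in R6/1-RGFP109. Fezf2, a zinc finger factor that specifies deep-layer neurons projecting below the cortex, had 7.33, 3.16, 5.89 and 4.28 FPKM. Emx1 had 7.83, 4.32, 6.34 and 5.92 FPKM. These 3 genes shared one order of groups, with WT-vehicle highest, then WT-RGFP109, R6/1-RGFP109 and R6/1-vehicle. The same order held for Slc17a7 and Neurod6.

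The upper-layer genes stood apart from that order, as did Neurod1 and Neurod2, for which R6/1-RGFP109 lay above WT-RGFP109. Cux2, a cut-domain homeobox factor, had 6.69 FPKM in WT-vehicle, 7.48 in R6/1-vehicle, 9.20 in WT-RGFP109 mice and 8.07 in R6/1-RGFP109, so WT-vehicle was its lowest group. Rorb, a nuclear receptor gene of the layer that receives thalamic axons, had 2.53, 2.04, 2.72 and 2.24 FPKM, with both R6/1 groups below both WT groups. In all, WT-vehicle was the highest group for 7 genes and R6/1-vehicle the lowest for 8. Levels of the genes ran from Slc17a7 through Tbr1, Neurod6, Neurod2, Emx1, Fezf2, Cux2 and Rorb to Neurod1 in WT-vehicle. Tbr1, Neurod6 and Neurod2 were neighbours within 14.7 to 13.5 FPKM, and Neurod2 came before both of the others in R6/1-RGFP109. The position of Cux2 moved from behind Fezf2 in WT-vehicle to before Emx1 in the other groups.

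**Figure D1:**
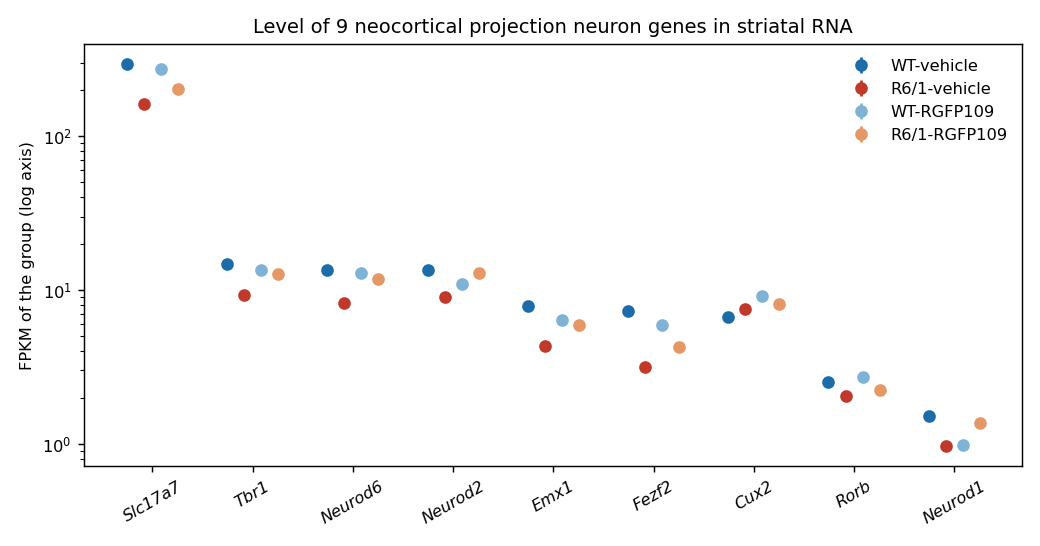
Level of each gene in FPKM on a log axis, ordered by its level in WT-vehicle, with 1 point per group and a bar for the range of the group's value over the 3 tables that hold it (mostly smaller than the point). R6/1-vehicle is the lowest point for 8 of the 9 genes, and Cux2 is the exception.

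With vehicle, 7 of the 9 genes were lower in R6/1 than in WT mice by more than the threshold used here, an absolute log2 ratio of 0.5 (1.41-fold), after 0.05 FPKM was added to both values. Among all 16972 genes with more than 0.1 FPKM in either group, 13.4% were lower by as much. The median log2 ratio of the 9 genes was -0.69, and that of all genes tested was -0.02.

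The deep-layer factor Fezf2 had the lowest ratio, -1.23 on the log2 scale (2.35-fold lower), at rank 482 from the lowest of all genes tested. Slc17a7 and Emx1 followed with -0.89 each (1.85-fold lower), at the adjoining ranks 964 and 965. Neurod6 stood at -0.75, Tbr1 at -0.69, Neurod1 at -0.66 and Neurod2 at -0.61. Rorb, at -0.34, was lower but within the threshold, and Cux2 was the only one of the 9 with a ratio above 0, at 0.13. The summed level was 362 FPKM in WT-vehicle and 207 FPKM in R6/1-vehicle, and without Slc17a7, which made up most of it, 67.6 and 44.6 FPKM. In whole tissue, fewer cells of a type and less RNA per cell cannot be told apart.

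Further neocortical genes came from lists set up with earlier results of these data known, and their counts are to be read against the 13.4% of all genes that were lower and the 5.84% that were higher. Of 10 upper-layer genes, 3 were lower past the threshold and none higher, with a median log2 ratio of -0.31. The 4 most abundant of them had ratios of -0.42 (Lamp5), -0.26 (Pou3f3), -0.20 (Cux1) and -0.79 (Lhx2), and Mdga1 (-0.73), named after its value was seen, was also past the threshold. Of 12 deep-layer genes, 2 were lower and none higher, with a median of -0.26. These were Hs3st4 (-0.75), a heparan sulfate sulfotransferase, and, named after its value was seen, Ctgf (-1.54), a marker of the subplate. Rprm had -0.49, Bcl11b -0.41 and Syt6 0.05, and Bcl11b as well as Foxp2 on this list are also transcribed by striatal projection neurons. Of 12 general pallial genes 11 could be compared, and 6 were lower and none higher, with a median of -0.60. The most abundant were Itpka (-1.39), an inositol trisphosphate kinase of dendritic spines, Nrn1 (-0.84), Nptx1 (-0.80) and Slc30a3 (-1.002), the vesicular zinc transporter.

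The other vesicular glutamate transporters went in opposite directions. Slc17a6 (VGLUT2), typical of thalamic and other subcortical glutamatergic neurons, had 3.85 FPKM in WT-vehicle, 6.33 in R6/1-vehicle, 6.03 in WT-RGFP109 mice and 5.19 in R6/1-RGFP109. Slc17a8 (VGLUT3) had 2.71, 1.501, 2.71 and 1.17 FPKM. Against R6/1-vehicle, WT-vehicle was thus lower for Slc17a6 and higher for Slc17a8, as it was for Slc17a7.

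Many markers of other cells were lower in R6/1-vehicle as well, so the lower values were not particular to neocortical genes. Of 15 striatal projection neuron genes, 10 were lower and 1 higher (Isl1, named after its value was seen), with a median of -0.99 and a summed level of 3786 FPKM in WT-vehicle and 1602 FPKM in R6/1-vehicle. Among its most abundant genes, Ppp1r1b stood at -1.36, Penk at -2.01 and Gng7 at -0.74. Of 6 oligodendrocyte genes, 4 were lower, with a median of -0.67 and sums of 4625 and 2649 FPKM, and among the most abundant were Mbp (-0.91), Cnp (-0.43) and Mobp (-0.95). Of 6 genes of claustrum, insula or amygdala, 5 were lower, with a median of -0.97. Lower past the threshold were also 5 of 8 interneuron, 2 of 6 astrocyte, 1 of 6 endothelial, 2 of 6 hippocampal, 1 of 6 thalamic, 4 of 6 hypothalamic, 5 of 6 choroid plexus and 1 of 2 measured olfactory bulb genes, but 0 of 6 microglial genes, and several of these counts are near the share among all genes. Higher past it were 1 hippocampal and 2 thalamic genes. None of these genes was listed at 0 in any group, and the part of these cell types in the result was not tested.

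**Figure D2:**
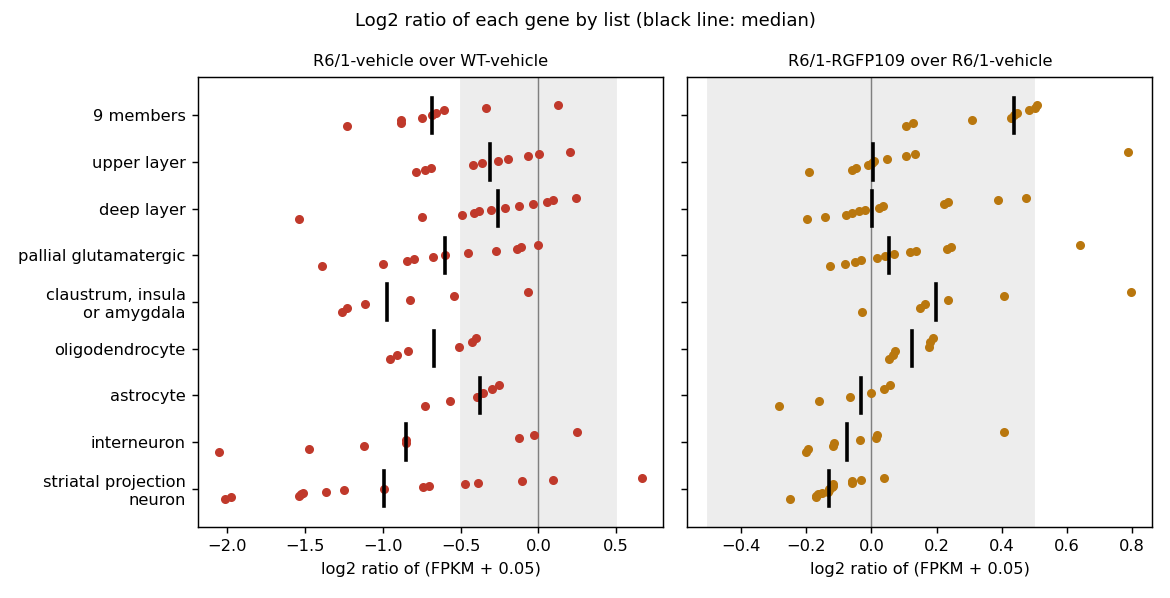
Log2 ratio of each measured gene, by list, for R6/1-vehicle over WT-vehicle (left) and R6/1-RGFP109 over R6/1-vehicle (right). Points are genes, black lines medians, and the grey band spans log2 ratios of -0.5 to 0.5. The 9 neocortical projection neuron genes have medians of -0.69 on the left and 0.44 on the right, where those of the other neocortical lists lie between 0.00 and 0.05.

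With RGFP109 the genotypes lay closer together for these genes, apart from Cux2. Of the 9 genes, 0 were lower in R6/1-RGFP109 than in WT-RGFP109 past the threshold, while 11.7% of all 16954 genes tested were. The median log2 ratio was -0.16. Slc17a7 (-0.47) and Fezf2 (-0.49) lay just inside the threshold and had the lowest ratios, as they did with vehicle together with Emx1. Emx1 (-0.13), Tbr1 (-0.13) and Neurod6 (-0.16) were close to equal in the genotypes, and Rorb had -0.31, near its ratio with vehicle. Neurod1 (0.43) and Neurod2 (0.20) were higher in the R6/1 group, and Cux2 (-0.22) was lower.

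Of the 2114 genes lower past the threshold in R6/1 mice with vehicle and measured in both comparisons, 61% were also lower past it with RGFP109, which holds for 0 of the 7 neocortical projection neuron genes among them. Their median log2 ratio was -0.75 with vehicle and -0.13 with RGFP109, a median shift of 0.75, against -0.79 and -0.60, and a median shift of 0.18, for all 2114 genes. Genes picked for a low vehicle ratio tend to have a less extreme value in another comparison. Of the 2114 genes, 75.0% had a higher log2 ratio with RGFP109 than with vehicle. All 10 striatal projection neuron genes that were lower with vehicle were also lower with RGFP109, at medians of -1.44 and -1.37. The 4 oligodendrocyte genes lower with vehicle, Mbp, Mobp and Mag among them, gave the same count as the neocortical ones, with 0 of 4 lower past the threshold with RGFP109 and medians of -0.87 and -0.34. Of the further neocortical and pallial genes lower with vehicle, 1 of 3 upper-layer, 1 of 2 deep-layer and 3 of 6 general pallial genes were also lower with RGFP109. The neocortical projection neuron genes were chosen with their ratios of R6/1-RGFP109 to R6/1-vehicle known. Their count of 0 of 7 is therefore a description only.

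**Figure D3:**
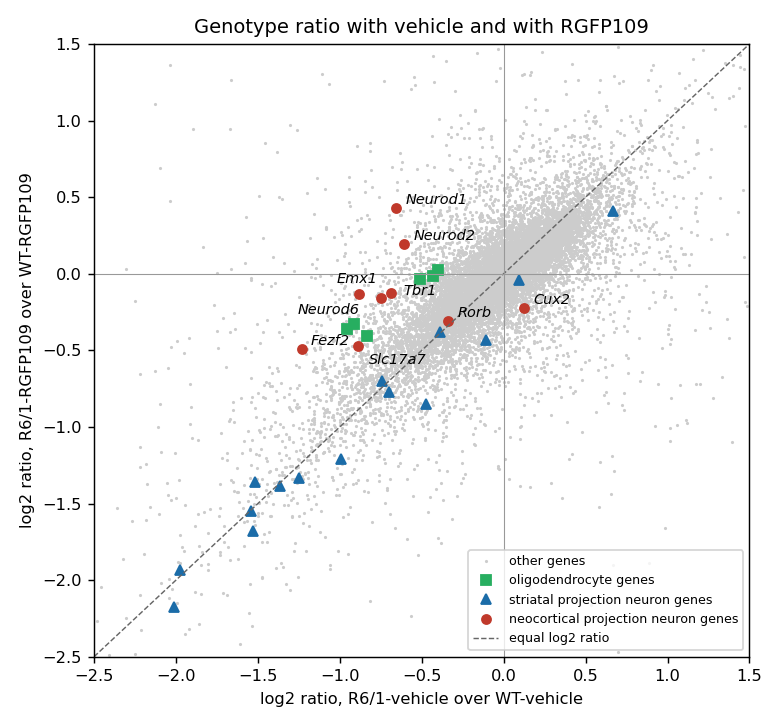
Log2 ratio of R6/1 to WT with RGFP109 (vertical) against that with vehicle (horizontal) for all genes measured in both, with the 9 neocortical projection neuron genes as circles, oligodendrocyte genes as squares and striatal projection neuron genes as triangles. Of the 9 circles, 8 lie above the dashed line of equal ratios, Rorb closest to it, and most triangles lie near it.

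Within R6/1 mice all 9 genes were higher with RGFP109 than with vehicle, at log2 ratios from 0.11 to 0.51 and a median of 0.44. Of the 16840 genes tested, 50.6% had a ratio above 0. Neurod6 (0.508) and Neurod2 (0.503) were past the threshold of 0.5 by a narrow margin, a size reached by 2.62% of genes in the higher direction. Both came inside it, leaving 0 of the 9 genes past it, when 0.5 or 1 FPKM was added in place of 0.05. Neurod2 had 9.05 FPKM in R6/1-vehicle and 12.9 in R6/1-RGFP109, and Neurod6 had 8.25 and 11.8 FPKM. The library of R6/1-vehicle with little of both genes lowers the first value of each pair, and the like library of R6/1-RGFP109 lowers the second, by amounts that are not given here.

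The other genes lay within the threshold. Neurod1 had a log2 ratio of 0.48, Emx1 0.45, Tbr1 0.44, Fezf2 0.43 and Slc17a7 0.31, and the upper-layer genes Rorb (0.13) and Cux2 (0.11) were the closest to 0. The summed level was 207 FPKM in R6/1-vehicle and 262 FPKM in R6/1-RGFP109, and 44.6 and 59.2 FPKM without Slc17a7. The R6/1-vehicle group enters both this comparison and that of the genotypes with vehicle, so a low value in it lowers one ratio and raises the other.

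The other neocortical lists had medians near 0. These were 0.01 for upper-layer, 0.00 for deep-layer and 0.05 for general pallial genes, with 6 of 10, 6 of 12 and 8 of 12 genes above 0. Past the threshold were 1 upper-layer gene, 0 deep-layer genes and 1 general pallial gene, Eomes (0.64), which was named after its value was seen and had levels near 0.1 FPKM. Ctgf stood at 0.47, Hs3st4 at 0.24 and Nptx1 at 0.23, whereas Itpka (-0.05), Nrn1 (-0.03), Slc30a3 (0.07), Lamp5 (-0.19) and Rprm (0.04) were near or below 0. Itpka thus had 122.7 FPKM in WT-vehicle, 47.8 in R6/1-vehicle and 46.3 in R6/1-RGFP109.

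Among the lists of other cells and regions, all 6 hypothalamic genes were above 0 and 3 of them past the threshold. Their summed level was 4.16 FPKM in R6/1-vehicle and 15.4 FPKM in R6/1-RGFP109. Avp made up most of the second sum, with 0.995 FPKM in R6/1-vehicle and 9.22 FPKM in R6/1-RGFP109. Hcrt (0.008) and Agrp (0.056) were close to 0, and Oxt and Pmch had only 0.118 and 0.139 FPKM in R6/1-vehicle. All 6 oligodendrocyte genes were above 0, with a median of 0.12 and none past the threshold, and sums of 2649 and 2984 FPKM. Of 6 genes of claustrum, insula or amygdala, 5 were above 0 and Nr4a2 (0.80) was past the threshold. All 6 choroid plexus genes were lower past it, as 3.14% of the 16840 genes tested were, with sums of 24.9 and 9.25 FPKM. Of 15 striatal projection neuron genes, 14 were below 0, with a median of -0.13. The part of these cells and regions in the values of the 9 genes was not tested.

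**Figure D4:**
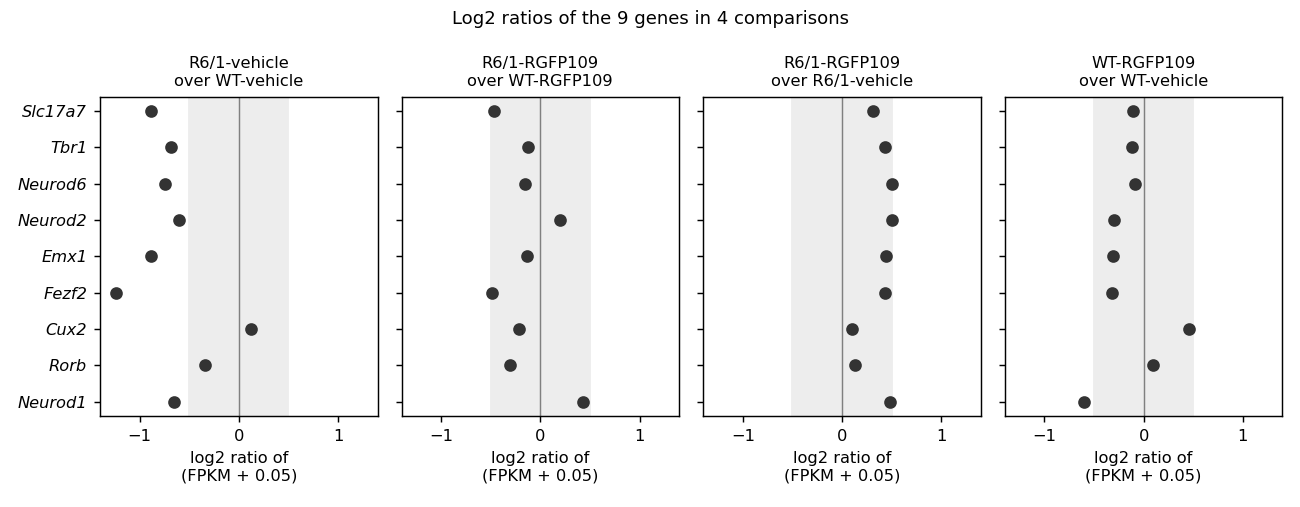
Log2 ratio of each of the 9 genes in 4 comparisons, with 1 point per gene and a grey band from -0.5 to 0.5. In R6/1-RGFP109 over R6/1-vehicle all 9 points lie above 0, and in R6/1-vehicle over WT-vehicle 8 of 9 lie below it.

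In WT mice most of the 9 genes had the opposite direction. WT-RGFP109 was lower than WT-vehicle for 7 of the 9 genes, with a median log2 ratio of -0.12. Of the 16957 genes tested, 8820 had a ratio below 0, and the median of all was -0.006. Neurod1 (-0.60) was lower past the threshold, as 4.92% of 16957 genes were, and 0 of the 9 were higher past it, as 3.19% of genes were. Neurod2 and Emx1 each had -0.30 and Fezf2 -0.31, while Tbr1 (-0.12), Slc17a7 (-0.10) and Neurod6 (-0.08) were near 0. The upper-layer genes Cux2 (0.45) and Rorb (0.10) were the pair above 0. All 6 oligodendrocyte genes were below 0 here, with a median of -0.37, and all 6 choroid plexus genes were lower past the threshold. All 3 measured olfactory bulb genes were higher past it. Eomes, among them and also on the general pallial list, had only 0.083 FPKM in WT-vehicle and 0.824 FPKM in WT-RGFP109. The part of these cells in the values of the 9 genes was not tested.

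The drug ratios of the genotypes share no group, and their difference (R6/1 minus WT, on the log2 scale) exceeded 0.5 for 6 of the 9 genes, compared with 4.98% of 16534 genes. It was largest for Neurod1, at 1.08 and rank 238 from the highest, followed by Neurod2 at 0.80, Emx1 at 0.75, Fezf2 at 0.74, Neurod6 at 0.59 and Tbr1 at 0.56. Slc17a7 had 0.41 and Rorb 0.03, and Cux2, at -0.35, was the only gene of the 9 below 0. With 1 value per group this difference could not be tested. The ratio within R6/1 mice, which enters it, was known when the 9 genes were chosen, so the count is a description only.

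Set against WT-vehicle, the R6/1-RGFP109 group was still lower for 8 of the 9 genes, with a median log2 ratio of -0.24. Of the 16982 genes tested, 8842 had a ratio below 0, and the median of all was -0.016. Fezf2 (-0.80) and Slc17a7 (-0.57) were lower past the threshold, as were 13.8% of 16982 genes. Emx1 stood at -0.44, Tbr1 at -0.25, Neurod6 at -0.24, Rorb at -0.21, Neurod1 at -0.17 and Neurod2 at -0.10, and Cux2 at 0.23 was again above 0. This comparison shares its R6/1-RGFP109 or WT-vehicle values with the others, and the ratios are given side by side without a measure of likeness between them.

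The median profile of the 9 genes over the groups, as log2 levels centred on their mean, was 0.25 in WT-vehicle, -0.41 in R6/1-vehicle, 0.17 in WT-RGFP109 mice and 0.03 in R6/1-RGFP109. Tbr1 lay closest to it, with a root mean square difference of 0.02 over the 4 groups, and Cux2 farthest, with 0.29. Among 13715 genes with a mean level of at least 1 FPKM, 63 lay within 0.1 of the profile, 3 of them from the 9 genes. Apart from the 9 genes, the closest 10 were Sel1l3 (0.04), Kcnmb4, Pcsk5, Gm5424, Tmem178, 1700008O03Rik, Snord35b, Adcyap1, Kcnmb4os2 and Trhde (0.07). Kcnmb4, which encodes a beta subunit of the calcium-activated BK potassium channel, had 63.1 FPKM in WT-vehicle, 42.0 in R6/1-vehicle, 60.99 in WT-RGFP109 mice and 52.4 in R6/1-RGFP109. Kcnmb4os2 overlaps it on the genome, and since the strand setting of the counting is not given in the sources used here, reads of the pair may not have been kept apart. Adcyap1, the gene of the neuropeptide PACAP, had 4.52, 3.21, 4.57 and 4.08 FPKM, and Trhde, an enzyme that degrades thyrotropin-releasing hormone, had 2.496, 1.67, 2.65 and 2.19 FPKM. With 4 values per gene, such likeness over many genes is a description only.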

How the data were processed

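Striatal RNA of 24 mice was sequenced in single-end reads of 51 bases. The authors aligned reads to RefSeq transcripts of mm10 with STAR 2.5.0b and computed FPKM with Cufflinks 2.2.1, and they deposited 6 Cuffdiff tables, 1 per pair of groups, with 1 FPKM value per group and gene. The same tables hold the authors' fold changes, test statistics, p-values and q-values, which were not used. Values of single libraries were not analysed here, and no error, interval or test is given.

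Log2 ratios were computed within the table of a pair after adding 0.05 FPKM, for genes over 0.1 FPKM in either group, and an absolute log2 ratio above 0.5 was counted. Levels are geometric means over the 3 tables that hold a group, whose values for the 9 genes differed by at most 4.01%. The 9 genes and the 17 gene lists were chosen with earlier results of these data known. Of each list at most 4 genes, those most abundant in WT-vehicle, were to be named, besides all 9 genes and the 10 genes of the most similar profile. Other named genes were chosen after their values were seen, and a few list members are counted but not reported by name here. Starts are given with 1 added. The ratio calculation was tested on simulated data. Python 3.11.15, numpy 2.4.6, pandas 2.3.3 and matplotlib 3.10.9 were used. Alternatives covered the pseudocount, the minimum FPKM, the centring, the source table and the minimum ratio.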

Additional observations from a re-analysis of the deposited data

How the results depend on the processing

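Of 270 values of the 9 genes under 6 alternative settings, 262 kept their direction and their side of the threshold and 0 reversed. The 8 others kept their direction and came inside the threshold when 0.5 or 1 FPKM was added in place of 0.05. These were Neurod1 in R6/1-vehicle over WT-vehicle (-0.48 and -0.37) and in WT-RGFP109 over WT-vehicle (-0.44 and -0.34), and Neurod2 (0.48 and 0.46) and Neurod6 (0.49 and 0.46) in R6/1-RGFP109 over R6/1-vehicle. The construction of the pseudocount draws low genes toward 0. All 30 medians of the 9 genes stayed on their side of the threshold. Removing the minimum FPKM only adds genes, and raising it only drops genes and dropped none of the 9. Their ratios and medians under those settings were thus the same by construction, and these values say nothing about stability.

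Counts of genes past the threshold, in either direction, moved more. For R6/1-vehicle over WT-vehicle, 3266 of all genes became 1946 with 0.5 FPKM added, 1572 with 1 FPKM added, 2094 with a minimum of 1 FPKM, 6212 with a minimum log2 ratio of 0.3 and 1050 with a minimum of 1, where 1 of the 9 genes was left of 7. For R6/1-RGFP109 over WT-RGFP109, 2892 became 1676, 1302, 1816, 5430 and 899 in the same order, and at 0.3 the count of the 9 genes was 4 in place of 0. For R6/1-RGFP109 over WT-vehicle, 3259 became 1927, 1547, 2074, 6126 and 1042, and at a minimum of 1 the count of the 9 genes was 0 in place of 2. For R6/1-RGFP109 over R6/1-vehicle, 971 became 422, 371, 445, 1909 and 388, and 1483 with no minimum FPKM, while 2 of the 9 genes became 0 with 0.5 or 1 FPKM added, 7 at 0.3 and 0 at 1. For WT-RGFP109 over WT-vehicle, 1376 became 552, 441, 581, 2575 and 550, and 2076 with no minimum FPKM, while 1 of the 9 genes became 0 with 0.5 or 1 FPKM added, 4 at 0.3 and 0 at 1.

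No paired analysis was possible because the deposited tables hold 1 value per group, and leaving out each mouse in turn was not run, since the values of single mice in the supplement of the study were not analysed here. As each R6/1 group holds 1 library with far less Neurod2 and Neurod6 than the rest, its group value need not stand for all its mice, and the 9 genes come from the same libraries, so they are not 9 separate observations. Depth is unknown and limits the low genes most, among them Neurod1 and Rorb.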

Other observations

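Neurod2 lies next to the striatal gene Ppp1r1b on chromosome 11, with 19.1 kb between the end of one and the start of the other, and the neighbours had unlike profiles. With vehicle, Ppp1r1b had 1136 FPKM in WT and 452 FPKM in R6/1 mice, and with RGFP109 it had 1030 and 402 FPKM, so both R6/1 groups were low. Neurod2 had 13.5 and 9.05 FPKM with vehicle and 11.0 and 12.9 FPKM with RGFP109, so the R6/1 group was lower with vehicle and higher with RGFP109.

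Bhlhe22, a further basic helix-loop-helix factor of pallial neurons that was singled out after its values were seen, had log2 ratios of -0.68 for R6/1-vehicle over WT-vehicle, -1.04 for WT-RGFP109 over WT-vehicle and -0.08 for R6/1-RGFP109 over R6/1-vehicle. It was thus highest in WT-vehicle and lower in each of the other groups.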
